A study of Homo sapiens with 16 samples.

Results

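A set of 10 genes, most of them immediate-early genes, was followed across 2 sucrose gradients: the AP-1 genes FOS, FOSB, JUN, JUNB and JUND, the zinc finger gene EGR1, IER2 and IER3, the phosphatase gene DUSP1, and MYC. They were chosen by symbol, and all 10 of 10 were found among the 13148 genes of the deposited table. The cells were 293S, an established human line of the HEK293 family. They were either untreated (the control) or given 1 mM sodium arsenite, an oxidative stressor that reacts with thiol groups, over 30 minutes. RNA from each treatment was separated into 8 gradient fractions, with 1 library per fraction and treatment, so the 16 libraries form 16 groups without replicates. Differences are therefore given as values, without p-values or a measure of replicate error.

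The deposited value of a gene in a fraction is its share: the part of the gene's total over the 8 fractions of that gradient. A share carries neither the amount of an mRNA nor its read depth, so induction or loss of these mRNAs under arsenite cannot be read from the table, and newly made and older copies cannot be told apart. No member had a share of 0 in any library, whereas 1523 of all genes had at least 1. Of 6 genes typical of HEK293-type cells (PAX2, NEFM, NEFL, VIM, KRT8 and KRT18) all were in the table, NEFM with a 0 in 3 libraries, while of 6 genes of other cell types only COL1A1 was. Whether fraction 1 was the top or the bottom of the gradient is not stated in the labels.

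Immediate-early genes are transcribed within minutes of growth factor or stress signals, without new protein synthesis, through MAP kinases and factors such as SRF. FOS and JUN family proteins pair as the AP-1 transcription factor, EGR1 and MYC are transcription factors themselves, and DUSP1 switches MAP kinases off again. Their mRNAs are short-lived, and AU-rich elements in the 3′ untranslated region (3′ UTR), built from AUUUA pentamers, are a well-known reason. In a sucrose gradient, an mRNA that carries more ribosomes sediments further, and arsenite is known to shut down most translation initiation.

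The AU-rich stretches of FOS, IER3 and DUSP1 are shown because they carry the sequence feature this gene class is known for. Each is the 30-base window of the annotated 3′ UTR with the most whole AUUUA pentamers, which are in capitals, and among the other members apart from MYC, which was not searched, no window held 2. Sequences and coordinates are from GENCODE release 29 (GRCh38), another build than the hg19 of the deposited values.
FOS, chr14:75282057-75282086, plus strand: uuguguuuuuaAUUUAUUUAuuaagaugga
IER3, chr6:30743648-30743677, minus strand: uaauuaauAUUUAuauguAUUUAuguacgu
DUSP1, chr5:172768641-172768670, minus strand: ggcugguccuuAUUUAUUUAacuucacccg
On the mRNA strand, the nonamer AUUUAUUUA, which is 2 overlapping pentamers, was present in the 3′ UTRs of FOS and DUSP1 and in those of no other member. It was found in 4.37% and 3.76% of annotated 3′ UTRs within 20% of the length of theirs. Pentamers per base were above those of 93.9% of 3′ UTRs of like length for FOS, 98.2% for IER3, 92.8% for DUSP1 and 97.1% for MYC. For the others they were less dense: the same figure was 80.7% for JUNB, 60.8% for JUN, 48.3% for JUND, 33.3% for FOSB and 28.1% for EGR1. IER2 had no AUUUA in its annotated 3′ UTR of 1050 nt, and EGR1 and JUND had 1 each.

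In untreated cells most of these mRNAs were spread more widely over the gradient than the typical gene. Their median shares were above those of all genes in fractions 2, 6 and 7 and below them in fractions 3 to 5. Fractions 3 to 5 still held a median of 40.7% of a member's total, beside 20.9% in 1 and 2 and 36.2% in 6 to 8. JUND and FOSB had more in fraction 4 than the median gene, and JUND and EGR1 had less in fraction 6. The median share in fraction 2 was 17.7% over the 10 members and 7.21% over all genes, whereas in fraction 4 it was 10.4% and 17.5%. In fraction 6 it was 19.99% for the members and 14.8% for all genes. The share in fraction 2 lay above the 75th percentile of all genes, which 25% of genes pass, for 9 of 10 members, and MYC was the exception at the 70.4th percentile.

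**Figure D1:**
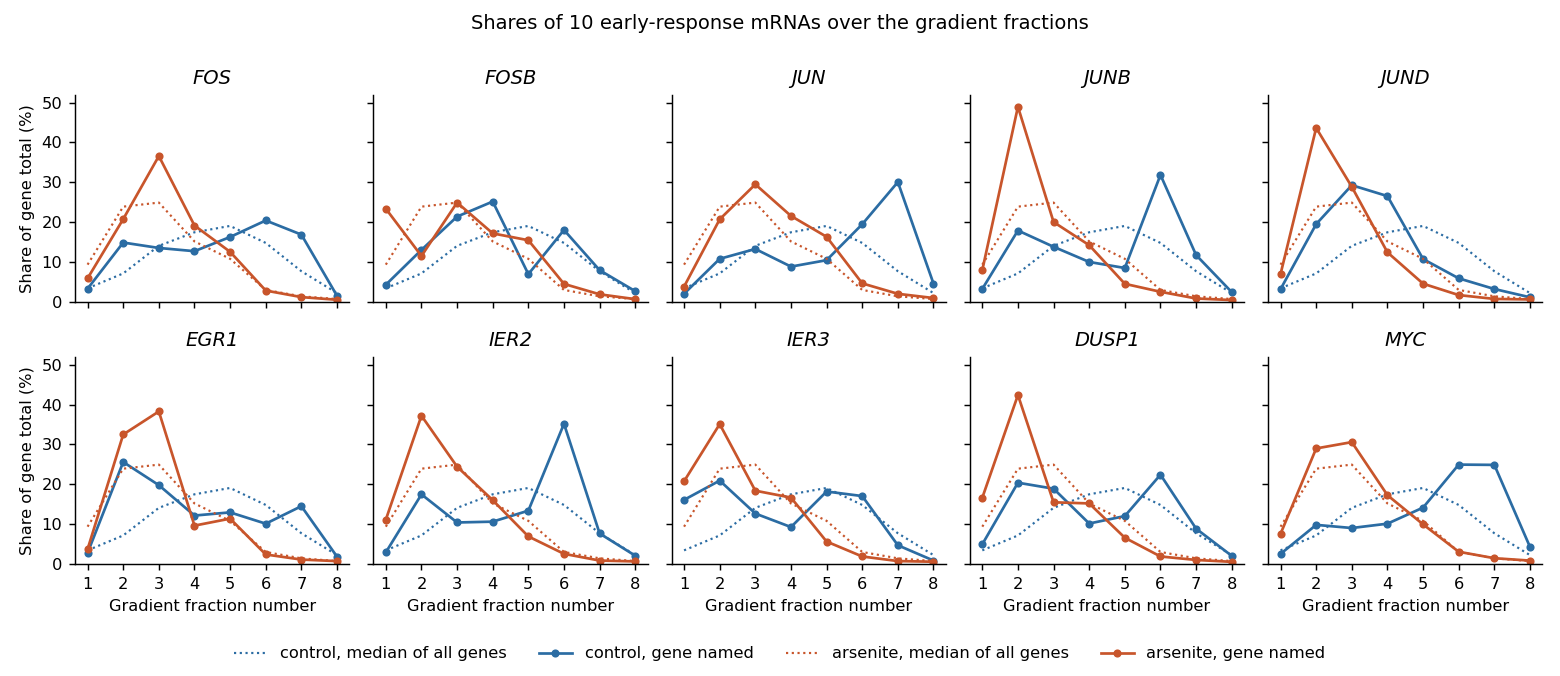
Share of each gene's total (%, vertical axis) in gradient fractions 1 to 8 (horizontal axis) for the 10 members in the control (blue) and with arsenite (orange), 1 library per point; dotted lines are medians over all 13148 genes. In the control most members have shares above the median of all genes in fraction 2 and again in fraction 6 or 7. With arsenite the largest share is in fraction 2 or 3 for all 10.

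FOS, the inducible partner of JUN, had 3.38%, 14.9%, 13.6%, 12.8%, 16.3%, 20.5%, 16.9% and 1.60% of its total in control fractions 1 to 8. Its paralog FOSB had 4.37%, 13.1%, 21.4%, 25.2%, 7.03%, 18.1%, 8.02% and 2.76%. FOS thus stayed between 12.8% and 20.5% from fraction 2 to 7, while FOSB was highest in fraction 4, dipped in fraction 5 and was higher again in fraction 6.

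The 3 JUN genes, whose products bind DNA as AP-1 with or without a FOS partner, differed from each other. JUN had 2.11%, 10.9%, 13.3%, 8.91%, 10.5%, 19.5%, 30.1% and 4.66% in control fractions 1 to 8 and was highest in fraction 7. JUNB had 3.33%, 18.0%, 13.9%, 10.1%, 8.56%, 31.9%, 11.8% and 2.52%, with high points at fractions 2 and 6. JUND had 3.26%, 19.6%, 29.3%, 26.6%, 10.8%, 5.97%, 3.30% and 1.23%, a single hump at fractions 3 and 4. FOSB too had its largest shares there, but was higher again in fraction 6. JUND is also the JUN gene known for steady expression and is not a classical inducible gene.

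EGR1, which binds GC-rich promoter sites, had 2.84%, 25.6%, 19.8%, 12.2%, 13.0%, 10.2%, 14.5% and 1.90% in control fractions 1 to 8. Its share in fraction 2 was the highest of the 10 and lay at the 97.8th percentile of all genes. IER2, a small nuclear regulator, had 2.96%, 17.5%, 10.5%, 10.7%, 13.4%, 35.2%, 7.70% and 2.13%. IER3, a stress-inducible regulator of cell survival, had 16.1%, 20.9%, 12.7%, 9.30%, 18.2%, 17.1%, 4.75% and 0.918%. IER2 held the largest single control share of the group, in fraction 6, and IER3 was the member with by far the most in fraction 1.

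DUSP1, the MAP kinase phosphatase, had 4.997%, 20.4%, 18.9%, 10.2%, 12.1%, 22.4%, 8.91% and 2.10% in control fractions 1 to 8. MYC had 2.58%, 9.86%, 9.07%, 10.2%, 14.2%, 24.9%, 24.9% and 4.33%. DUSP1 thus had the same pair of high points as JUNB and IER2, whereas MYC leaned to high fraction numbers like JUN. With a peak counted where it stands at least 5 percentage points above the dip beside it, a rule set after the profiles were seen, FOSB, JUNB, IER2, IER3 and DUSP1 had 2 peaks in the control, 5 of 10 members against 22.3% of all genes.

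The width of a profile was summarised as its spread, the standard deviation of the fraction number weighted by the shares. This summary too was chosen after the profiles were seen. The control spread was above the 75th percentile of all genes (1.76 fractions, passed by 25% of genes) for 8 of 10 members. It was 1.94 for IER3, 1.93 for JUN, 1.91 for JUNB, 1.90 for EGR1, 1.89 for DUSP1, 1.85 for FOS, 1.83 for MYC and 1.81 for IER2. FOSB, at 1.75, lay just under that limit and JUND, at 1.43, was narrower than the median gene (1.60). Without fraction 2 in both gradients 4 members passed, and without fraction 6, 5 did. Against genes with a like control position the count was again 8, with FOSB in place of MYC. With size factors, described below, it was 7, but EGR1, MYC, FOS, JUN and FOSB passed only narrowly, at percentiles 75.06 to 76.8. FOSB was then among those that passed, while IER2, at percentile 72.97, and IER3, at 49.996, were not. The members' median percentile was 75.8 with size factors and 87.5 in the deposited shares.

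With arsenite the members were about as wide as other mRNAs. Their median spread was 1.36 against 1.38 for all genes, and 1 of 10, FOSB at 1.66, lay above the 75th percentile of that gradient, which again 25% of genes pass. FOSB was also the member with 2 peaks under arsenite, as 13.8% of all genes had.

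**Figure D2:**
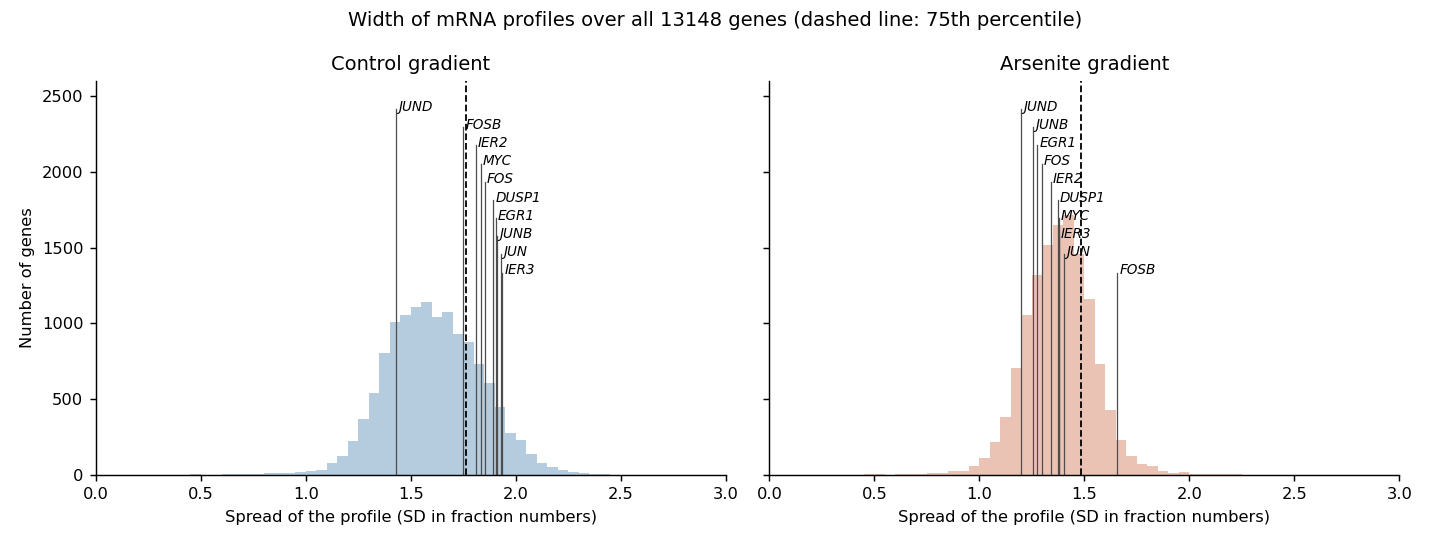
Number of genes (vertical axis) by the spread of their profile in fraction numbers (horizontal axis) in the control (left) and arsenite gradient (right), with the 10 members marked by vertical lines whose height has no meaning. In the control 8 members lie right of the dashed 75th percentile of all genes, and with arsenite FOSB does.

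Position, the mean fraction number weighted by the shares, ran from 3.59 for JUND to 5.195 for MYC in the control, with a median of 4.38 over the members and 4.54 over all genes. In ascending order JUND was followed by IER3 (3.67), EGR1 (4.05), DUSP1 (4.17), FOSB (4.18), JUNB (4.58), FOS (4.61), IER2 (4.61), JUN (5.17) and MYC. JUND and IER3 lay low among all genes, at percentiles 6.16 and 7.78, and JUN and MYC at percentiles 84.7 and 85.5. Without replicates there is no spread against which neighbours in this order can be judged, and FOS and IER2 differed by 0.00231 fractions. The Spearman correlation of coding length with control position was 0.06 over the 10 members, against 0.38 over 12956 genes with an annotated transcript, as a description.

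With arsenite, all 10 members lay at lower fraction numbers, as 98.3% of all genes did, and all had a smaller share in fractions 5 to 8, as 95.7% of all genes did. Fractions 5 to 8 held a median of 50.1% of a member's total in the control and of 13.4% under arsenite, and over all genes 53.9% and 16.4%. The size of this common change rests on the relative weight of the fractions, about which the sources used here say nothing. Size factors by median of ratios, taken over both gradients together, were used as another weighting. They level the typical gene over the 16 libraries, so most of a change common to all genes is removed by construction. The median shift of all genes was −0.23 fractions with size factors. With them 6 of 10 members lay lower with arsenite, as 58.8% of all genes did, and FOSB, JUND, EGR1 and IER3 lay higher, and the median change in the share of fractions 5 to 8 was −4.55 in place of −36.6 percentage points.

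FOS had 5.97%, 20.8%, 36.6%, 19.2%, 12.6%, 2.91%, 1.28% and 0.606% in arsenite fractions 1 to 8, and FOSB had 23.4%, 11.6%, 24.95%, 17.2%, 15.5%, 4.58%, 1.97% and 0.761%. FOS was thus gathered at fraction 3, and FOSB had the highest share of the group in fraction 1 and the lowest in fraction 2. FOSB kept 63.6% of its control share in fractions 5 to 8 (35.9% before and 22.8% under arsenite), the most of any member in the deposited shares. With size factors its share there was 37.6% and 49.8%, and that of JUND, 20.3% and 34.9%, was higher under arsenite by a larger factor. FOS kept 31.5% of it, at 55.3% and 17.4%.

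JUN had 3.89%, 20.8%, 29.5%, 21.6%, 16.4%, 4.71%, 2.10% and 1.04% in arsenite fractions 1 to 8. JUNB had 8.04%, 48.9%, 20.1%, 14.3%, 4.601%, 2.61%, 0.928% and 0.533%. JUND had 7.05%, 43.6%, 28.9%, 12.5%, 4.64%, 1.79%, 0.819% and 0.690%. JUNB and JUND, so unlike in the control, had nearly the same profile here, overlapping by 91.0% (the sum over fractions of the smaller of the paired shares) against 64.2% in the control. JUNB held the largest single share of the group, in fraction 2, and its share in fraction 6 was 12.2-fold lower than in the control. The median share of all genes in fraction 6 was lower too, 3.07% against 14.8% in the control.

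EGR1 had 3.77%, 32.5%, 38.3%, 9.67%, 11.4%, 2.44%, 1.17% and 0.781% in arsenite fractions 1 to 8. IER2 had 11.2%, 37.2%, 24.4%, 16.04%, 6.96%, 2.61%, 0.922% and 0.700%. IER3 had 20.8%, 35.1%, 18.4%, 16.7%, 5.68%, 1.94%, 0.792% and 0.626%. EGR1 was the most concentrated in fractions 2 and 3 after JUND, with 70.8% there. In the deposited shares the peak of IER2 in fraction 6 was gone. Its share there was 13.5-fold lower than in the control, the largest such ratio among the members.

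DUSP1 had 16.7%, 42.4%, 15.5%, 15.2%, 6.63%, 1.94%, 1.07% and 0.597% in arsenite fractions 1 to 8. MYC had 7.61%, 29%, 30.6%, 17.3%, 9.99%, 3.12%, 1.51% and 0.910%. DUSP1 and IER3, with IER2, formed the most alike trio at low numbers, overlapping pairwise by 89.2% to 91.5%. In percentage points MYC had the largest change of the members in fractions 5 to 8, from 68.3% to 15.5%. It kept 22.7% of its control share there, while JUNB kept 15.8%, the least of any member in the deposited shares.

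Fraction by fraction, the log2 ratio of arsenite to control was taken with a pseudocount of 1 percentage point, so changes of small shares are understated. In fraction 6 it was at most −1 for 10 of 10 members, against 78.6% of all genes, and in fraction 7 for 10 of 10, against 82.6%. In fraction 2 it was at least 1 for 5 of 10 (JUNB, JUND, IER2, DUSP1 and MYC), against 71.6%. In fraction 1 it was so for 5 of 10, against 58.3%, and in fraction 3 for 4 of 10, against 35%. In fraction 8 it was at most −1 for 4 of 10, against 42.7%. The members' median log2 ratio was −2.54 in fraction 6, where that of all genes was −1.85, and 0.95 in fraction 2, where that of all genes was 1.498. With size factors the medians over the members were −0.23 in fraction 6 and −0.43 in fraction 2, the opposite sign in fraction 2, and those over all genes were 0.12 and −0.08. In both scalings the members' median log2 ratio thus lay below that of all genes in both fractions. The ratio is taken against the control share, whose median in the deposited shares was higher for the members in both fractions. With arsenite the members' median share in fraction 2 was still above that of all genes, 33.8% against 23.9%. In fraction 6 it was 2.61% against 3.07%. Single members differed: in the deposited shares the log2 ratio in fraction 6 was −1.77 for FOSB, −1.84 for JUN, −1.32 for JUND and −1.70 for EGR1, all above the median of all genes.

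**Figure D3:**
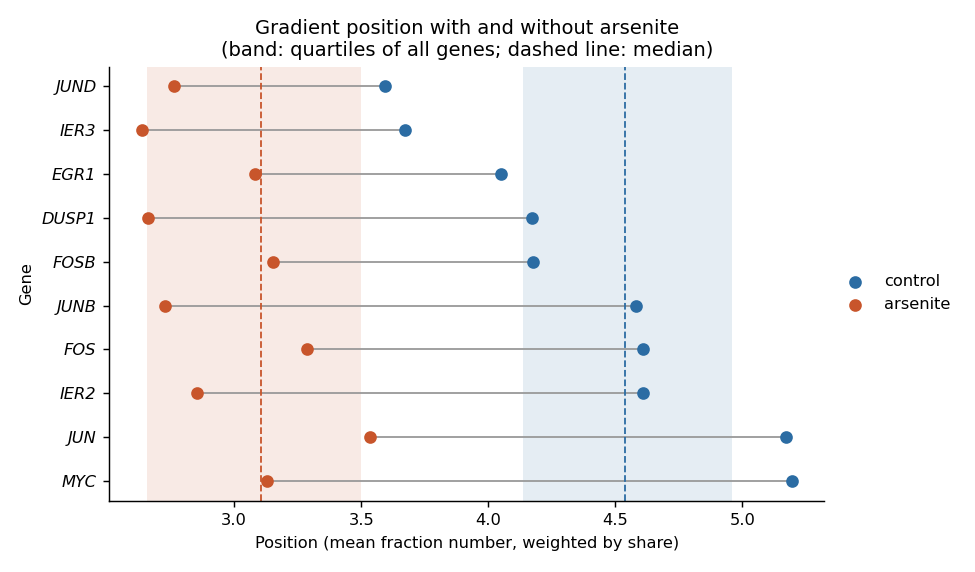
Position of each member (mean fraction number, horizontal axis) in the control (blue) and with arsenite (orange), 1 gradient each; bands give the quartiles and dashed lines the medians of all genes. All 10 members lie lower with arsenite, and JUN and MYC, at 5.17 and 5.195 in the control, lie at 3.54 and 3.13 with arsenite.

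Against the median gene, whose shift was −1.46 fractions, the members as a group did not stand out. A gene was said to have moved when its relative shift, its own shift minus that median, reached 0.5 fractions in either direction and no omission of a single fraction number from both gradients turned its sign. JUND moved higher, 1 of 10 against 23.6% of all genes, and MYC moved lower, 1 of 10 against 24% of all genes. With size factors 3 of 10 moved higher, against 28.7% of all genes, and 1 lower, against 26.4%. The median relative shift of the members was 0.04.

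JUND went from 3.59 to 2.76 with arsenite, a relative shift of 0.62. It was under the threshold without fraction 7 (0.46) or fraction 3 (0.48), and it lay just 0.04 above genes of like control position. MYC lay at 5.195 and 3.13, a relative shift of −0.61, which was −0.31 without fraction 7 and −0.14 against genes of like control position. Set against genes that began at a like position, neither reached the threshold.

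EGR1, at 4.05 and 3.08, had a relative shift of 0.49, just under the threshold, and of 0.75 with size factors, where it met the rule. IER3, at 3.67 and 2.64, had one of 0.42, and of 0.90 with size factors, where it did too. FOSB had one of 0.43, at 4.18 and 3.15, which was 0.79 and met the rule without fraction 1. FOS (0.13, and 0.23 with size factors), DUSP1 (−0.06, and −0.00462), JUN (−0.18), IER2 (−0.30, and −0.15) and JUNB (−0.40) did not meet it. JUNB met it toward lower numbers without fraction 1 (−0.53) or fraction 3 (−0.52). JUNB and DUSP1 lay furthest below genes of like control position, by −0.39 fractions each.

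Under arsenite the members were grouped by the fraction with their largest share. JUNB, JUND, IER2, IER3 and DUSP1 had their largest share in fraction 2, as 34.5% of all genes did, and lay between 2.64 and 2.85. FOS, FOSB, JUN, EGR1 and MYC had theirs in fraction 3, as 37.2% of all genes did, and lay between 3.08 and 3.54. The sets did not overlap in position in the deposited shares or with size factors, where the first ended at 4.00 and the other began at 4.22, though this follows in part from how they were defined. The gap between them, 0.23 fractions from IER2 to EGR1, was smaller than the one from FOS to JUN, 0.25. In the control they were mixed: IER2 and JUNB lay beside FOS. The profiles of JUNB, JUND, IER2, IER3 and DUSP1 overlapped by a median of 88.7% over 10 pairs with arsenite and of 75.5% in the control. For FOS, FOSB, JUN, EGR1 and MYC the medians were 83.5% (lowest pair 65.8%) and 76.3%, and over the 25 pairs between the sets they were 74.4% and 76.3%. The sets were chosen from the arsenite profiles, so a higher overlap within them there is partly built in.

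The same sets differed in annotated mRNA length, which the grouping did not use. The members with the largest arsenite share in fraction 2 had mRNAs of 1244 nt (IER3), 1820 nt (JUNB), 1863 nt (JUND), 2019 nt (DUSP1) and 2085 nt (IER2). Those with it in fraction 3 had 2158 nt (FOS), 2366 nt (MYC), 3138 nt (EGR1), 3540 nt (JUN) and 3775 nt (FOSB). The lengths do not overlap, but FOS and IER2 differ by little, and the length of IER2 depends on the transcript, as its CCDS transcripts run from 1291 to 2934 nt, and those of MYC from 1365 to 2366 nt. Over the 10 members the Spearman correlation of mRNA length with arsenite position was 0.85, and over 12956 genes it was 0.68, both as descriptions. The relation was thus a general one. Genes with their largest arsenite share in fraction 2 had a median mRNA of 2678 nt, and those with it in fraction 3 of 4337 nt.

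**Figure D4:**
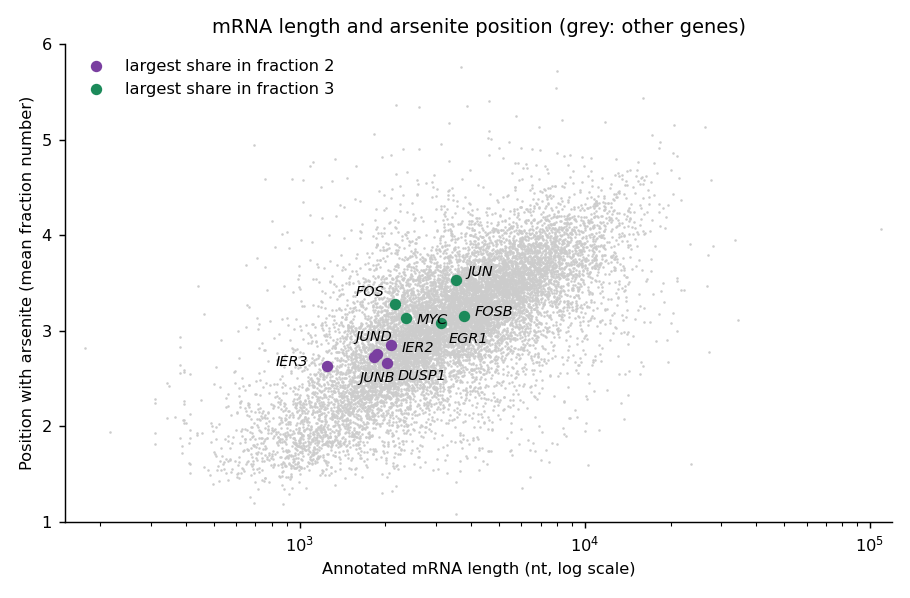
Annotated mRNA length (nt, log scale, horizontal axis) against position with arsenite (mean fraction number, vertical axis) for 12956 genes in grey and the 10 members in colour. The 5 members with their largest share in fraction 2 (purple, 1244 to 2085 nt) lie lower and further left than the 5 with it in fraction 3 (green, 2158 to 3775 nt).

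Many other immediate-early genes also had much of their total in control fraction 2. Of 41 further such genes in the table, 28 had a share in control fraction 2 above the 75th percentile of all genes, 20 had a spread above it (48.8%, against 25% of all genes), and 21 had 2 peaks (51.2%, against 22.3%). Their median share in control fraction 2 was 15.2%. It reached 38.3% for ZFP36, which encodes the protein tristetraprolin that binds AU-rich elements, but ZFP36 had 1 peak and a spread at percentile 40.8. CYR61, a secreted matrix protein, had 21.8% in fraction 2 and a spread at percentile 97.7, and HES1, a Notch target, had 17.1% and one at percentile 99.5. SRF, the factor that drives many of these genes, was narrow, at percentile 13.3. A high fraction 2 share and a broad profile were also found in lists described below. The share passed the 75th percentile for 57.1% of AP-1 and related genes and 50% each of MYC network genes and upstream-frame stress mRNAs. For genes acting on MYC, DUSP, MAP kinase and AU-rich binding genes 25% to 35.1% passed. The profile was broad for 58.3% of AU-rich binding genes and 60% of EGR and NAB genes, against 12.5% to 33.3% in the others.

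With arsenite, 8 of the 41 further immediate-early genes moved higher and 4 lower, and 29 did neither. Their median relative shift was 0.04 (0.30 with size factors). Of all genes 23.6% moved higher and 24% lower, shares that also stand beside the counts of the lists below. With size factors 14 of the 41 moved higher and 4 lower, where 28.7% and 26.4% of all genes did. ZFP36 had the highest, 1.07, and ID3, an inhibitor of helix-loop-helix factors, the lowest, −0.91.

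The pathway around the members was described with further lists. Among 14 other AP-1 and related leucine zipper genes 6 moved higher and 0 lower, with a median relative shift of 0.41 (0.68 with size factors). MAFG, a small MAF protein, had the highest (1.37). Of 5 EGR family and NAB genes 2 moved higher and 0 lower, from 1.15 for NAB1 (2.12 with size factors), a corepressor of EGR1, to −0.15 for WT1, which had 0.22 with size factors. With size factors NAB1 alone of the 5 moved higher, as EGR3, named here after its values were seen, had 0.70 in the deposited shares and −0.16 with size factors. All 5 had a share in control fraction 2 above the 75th percentile.

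In the MYC and MAX network 4 of 12 genes moved higher and 0 lower (7 and 1 with size factors), at a median of 0.35, or 0.56 with size factors. MGA, a MAX partner, had 0.98 and MLX had −0.49. Of 12 genes that act on MYC protein or its transcription 2 moved higher and 2 lower, against 5 and 3 with size factors. Their median was −0.00724, or −0.10 with size factors. FBXW7, the ubiquitin ligase subunit that recognises MYC, had 1.09 (1.74 with size factors), and AURKA, a kinase that stabilises MYC family proteins, had −0.74.

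Of 37 MAP kinase and SRF pathway genes 14 moved higher and 4 lower. Their median was 0.22, or 0.50 with size factors. MAPK13, a p38 kinase listed at 0 in 4 libraries, had 1.92, and MAP2K1, which encodes the ERK kinase MEK1, had −0.93 (−0.44 with size factors). Among 16 other DUSP phosphatases 5 moved higher and 3 lower, and their median was 0.19. DUSP7 had the highest relative shift, 0.75 (1.30 with size factors), and DUSP11 the lowest, −1.08. Among 12 genes for proteins that bind AU-rich or related elements 1 moved higher (ZFP36) and 2 lower, against 3 and 6 with size factors. Their median was −0.14, or −0.32 with size factors, and HNRNPD, which encodes AUF1, had the lowest (−1.02).

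Stress mRNAs with upstream reading frames, which are known to be translated when eIF2 is phosphorylated, were set beside the members. Of 14 such genes 8 moved higher and 2 lower, with a median relative shift of 0.62, from 1.57 for ATF4 to −0.93 for EPRS (−1.65 with size factors). A median of 49.95% of their total lay in fractions 5 to 8 without arsenite, beside 50.1% for the members, and 25.8% with it, beside 13.4%. This difference was not tested, and these shares depend on the weighting of the fractions. With size factors the members' medians were 44.7% and 42.6%, and those of the stress mRNAs are not given here. The median relative shift with size factors was 0.66 for the stress mRNAs and 0.11 for the members.

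**Figure D5:**
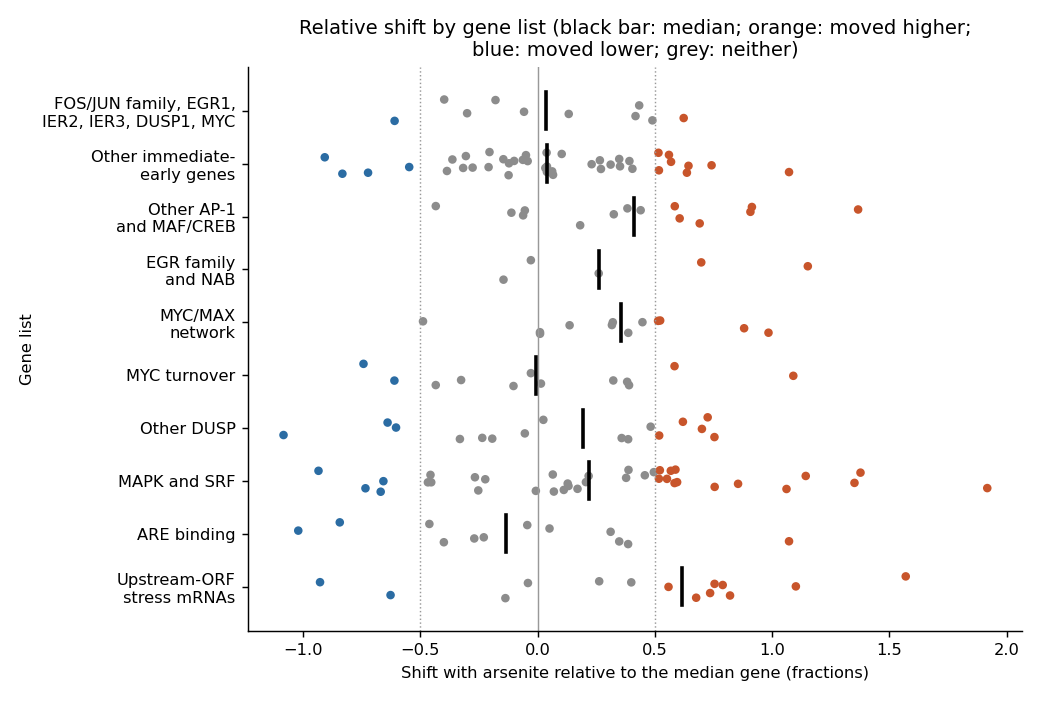
Shift with arsenite relative to the median gene (fractions, horizontal axis) for the genes of each list (vertical axis), 1 point per gene; black bars are medians, dotted lines the size a moved gene must reach. The members' median is 0.04 and that of the stress mRNAs with upstream reading frames 0.62.

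For each member the 3 most similar profiles over the 16 libraries were sought among the 11625 genes with no 0, by overlap averaged over both gradients. MYC was most like MARS2 (96.0%), GLE1 and CALCOCO2, JUND like TEX261 (95.8%), ULK3 and NCS1, and JUN like RBM12 (95.04%), TRIM32 and NFRKB. IER2 was most like ZNF444 (94.5%), AKIRIN2 and PRKAR1B, and FOS like ZNF212 (93.7%), DMD and MAP7. JUNB came with WHSC2 (92.7%), TFAP4 and AGFG2, and DUSP1 with DCP1B (92.2%), HOXA4 and CPEB1. Less close were EGR1 with WIZ (90.7%), GDF11 and GTF2IRD1, IER3 with FAS (90.3%), CDYL and POLR3G, and FOSB with ZNF84 (88.9%), ZNF615 and CACNA1B. No member was among the 3 genes most like another member. The members closest to each other were JUNB and IER2 in the control, at 91.3%, and IER3 and DUSP1 with arsenite, at 91.5%.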

How the data were processed

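RNA from the gradient fractions was extracted with Trizol and made into libraries by a priming method called NSR, per the labels' protocols. The authors deposited 1 table with 16 columns in the unit fraction, here printed as percent shares, and 3 score columns with the mean fraction number of each gene and its difference. Per the file headers values refer to RefSeq exons; per the submitters' processing notes the build was hg19. The sources used here do not give aligner, counting, strand, filters, depth or the weighting of fractions, so intervals are left out. Positions recomputed from the shares differed from the deposited scores by at most 9.77e-15.

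Members and lists were chosen with earlier results of these data known. Named genes were all members, the genes of each list with the highest and lowest relative shift, and the 3 most similar profiles, with 1 gene not reported here; CYR61, HES1, SRF and EGR3 were chosen after their values were seen. Genes of like control position were those in the same of 20 equal bins. The call rule was tried on simulated profiles in which all genes shared the mean profile of each gradient, apart from planted shifts. These held no other differences between genes and no error in the weights of fractions, so they cannot give its error rate here. Lengths and 3′ UTRs come from 1 CCDS transcript per gene of GENCODE release 29 (best support level, then longest), matched by symbol or synonym for 12956 genes (98.5%). Python 3.11.15, numpy 2.4.6 and scipy 1.17.1 were used.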

Additional observations from a re-analysis of the deposited data

How the results depend on the processing

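Alternatives were size factors, each fraction number left out of both gradients, 1 percentage point added before shares, thresholds of 0.25 and 1 fractions, the point where 50% of the total is reached, shifts against genes of like control position, and a median over genes with no 0. The count of members that moved higher, 1 of 10 (23.6% of all genes), was 3 with size factors (28.7% of all genes), 0 to 3 with a fraction left out (20.6% to 26.3%), 4 and 0 at the lower and upper threshold (34.8% and 6.69%), 3 at the 50% point (26.8%), 0 against genes of like control position (18.1%) and 2 over genes with no 0 (25.4%). The count that moved lower, 1 of 10 (24% of all genes), was 0 to 2 with a fraction left out (19.5% to 25.5%), 2 and 0 at the lower and upper threshold (31.3% and 9.33%), and 0 against genes of like control position (20.2%). The median relative shift of the members, 0.04, ran from −0.19 to 0.30 with a fraction left out. The median change in the share of fractions 5 to 8, −36.6 percentage points, was −40.7 to −24.3 with a fraction left out. With size factors, which remove most of the common change by construction, it was −4.55.

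The checks of breadth and peaks were chosen after seeing the data. The 8 members with a broad control profile were 4 to 9 with a fraction left out. With size factors they were 7, at percentiles 75.06 to 83.1. The 5 with 2 peaks were 7, 4 and 2 at a height of 3, 8 and 10 points, when 33.3%, 12% and 8.13% of all genes had them, and 8 with size factors, when 56.5% of all genes did. The cause of these changes was not tested. No paired analysis was possible because each group has 1 library.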

Other observations

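Further features of the early-response mRNAs were also looked at over all genes. The 961 genes with the nonamer AUUUAUUUA in the annotated 3′ UTR had a median relative shift of 0.31 and a median control spread of 1.65 fractions. The 11995 without it had −0.03 and 1.60. These 2 sets were not matched for length, and the part of length in the difference was not tested. Over all genes the Spearman correlation of mRNA length was 0.34 with control spread and 0.68 with arsenite position. FOS and DUSP1, the members with the nonamer, had relative shifts of 0.13 and −0.06. JUN, JUNB and JUND each have a single exon in the annotated transcript, as 2.52% of genes do. The 326 single-exon genes had a median control spread of 1.52 fractions, below the 1.60 of all genes, and 21.5% of them had a broad control profile, against 25% of all genes.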
